A study of Mus musculus with 24 samples.

Results

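The livers described here came from mice whose hepatocytes still had FoxO1 and had received a control virus, and the data show which transcripts differed within 1 h of refeeding after a short fast. The 6 libraries, of 24 in the series, were chosen by their labels alone: 3 refed and 3 fasted virus-GFP livers. The mice were C57BL/6 with a floxed Foxo1 allele (FoxO1lox/lox) and were given AAV8.TBG.eGFP by tail vein, an adeno-associated virus in which the hepatocyte-specific TBG promoter drives green fluorescent protein and which carries no Cre. Livers were taken on day 21 after injection, from mice fasted for 4 h and then refed for 1 h (refed, n = 3) or fasted for 4 h (fasted, n = 3). For comparison the series holds 6 libraries from floxed mice given AAV8.TBG.Cre, which deletes FoxO1 in hepatocytes (Cre), and 6 from floxed mice for which the labels name no virus (WT), each with 3 refed and 3 fasted livers. The labels name neither sex nor age, and it is not stated whether the libraries of a group are different animals. The p-values below therefore describe the scatter of these samples, part of which may be technical.

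Feeding raises insulin, and insulin acts on hepatocytes through the receptor substrates Irs1 and Irs2, phosphatidylinositol 3-kinase and Akt. Akt phosphorylates FoxO1, which then leaves the nucleus, so that genes FoxO1 activates in the fasted liver, such as Irs2, Igfbp1 and G6pc, lose an activator. The same signal raises glucose use, lipid synthesis and, through mTORC1, the making of ribosomes.

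Expression was given as FPKM, a fragment count divided by transcript length and by the fragments mapped in the library, so levels are per length. Replicate 3 of both groups was sequenced deeper than the others: relative to the mean of the series, depths were 0.651, 0.621 and 1.37 in refed and 0.549, 0.609 and 1.30 in fasted livers. The first principal component of the 6 libraries, with 33% of the variance, separated refed from fasted livers, and the second, with 22.1%, had both replicates 3 at its low end. Markers of hepatocytes summed to 54840 to 71320 FPKM in refed and 62730 to 65860 FPKM in fasted livers, the highest sums of the marker lists. Kupffer cell and macrophage markers were higher on average in refed livers for 8 of 8 genes, and their sums, 64.2, 120 and 124 FPKM against 43.0, 62.2 and 63.3 FPKM in fasted livers, did not overlap; replicates 2 and 3 were the high refed libraries. Endothelial markers (8 of 8 higher on average) summed to 58.5 to 77.4 FPKM in refed and 32.5 to 64.7 FPKM in fasted livers. Stellate cell markers (7 of 8) summed to 119 to 144 FPKM in refed and 64.6 to 138 FPKM in fasted livers. Lymphocyte markers summed to 1.72 to 2.60 FPKM in refed and 0.989 to 1.35 FPKM in fasted livers, which did not overlap either. Neutrophil markers summed to 1.88 to 26.1 FPKM in refed and 1.42 to 4.95 FPKM in fasted livers. Cholangiocyte markers reached 24.3 to 75.4 FPKM in refed and 20.3 to 45.5 FPKM in fasted livers, and erythroid markers 55.6 to 118 FPKM in refed and 46.5 to 337 FPKM in fasted livers. Of the pancreatic acinar and the adipocyte markers, 3 of 5 each were at 0 in all 6 libraries. No marker gene that was tested was called by limma, and of the 8 Kupffer cell markers 0 had an unadjusted p under 0.05. Of the lymphocyte and the adipocyte markers 0 were expressed enough to be tested, and of the cholangiocyte and the acinar markers 1 of 5 each. The part of these other cells in the results below was not tested, and in whole liver fewer cells of a type and less RNA per cell cannot be told apart.

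Of 10452 genes tested with limma, 686 (6.56%) passed an adjusted p of 0.05, 503 higher (4.81%) and 183 lower (1.75%) in refed than in fasted livers. An unadjusted p under 0.05 was reached by 2491 of the 10452, to be held beside the unadjusted counts of the lists below. The refed and fasted libraries did not overlap for any of the 686, which held for 2839 (27.2%) of all genes tested. Most changes were modest, with a median log2 change of 0.53 among genes called higher and -0.62 among genes called lower. The deposited FPKM ran higher in refed livers by a median log2 of 0.077 over all genes. When each library was scaled by its median ratio to the others, the split became 262 higher (2.51%) and 308 lower (2.95%) of 570 calls (5.45%), so that 46.0% instead of 73.3% of calls were higher. Both scalings shared 262 genes called higher and 183 called lower, and 0 were called in opposite directions. Large changes hardly depended on scaling: 49 of 53 genes that rose by a log2 of 1 or more, and 26 of 26 that fell as far, were called under both. Without the deeper libraries, which leaves 2 a group, 222 genes were called. Of the 678 calls tested there, 123 called higher and 66 called lower were called again. Their signs could not turn, as the refed and fasted libraries of these genes did not overlap.

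**Figure D1:**
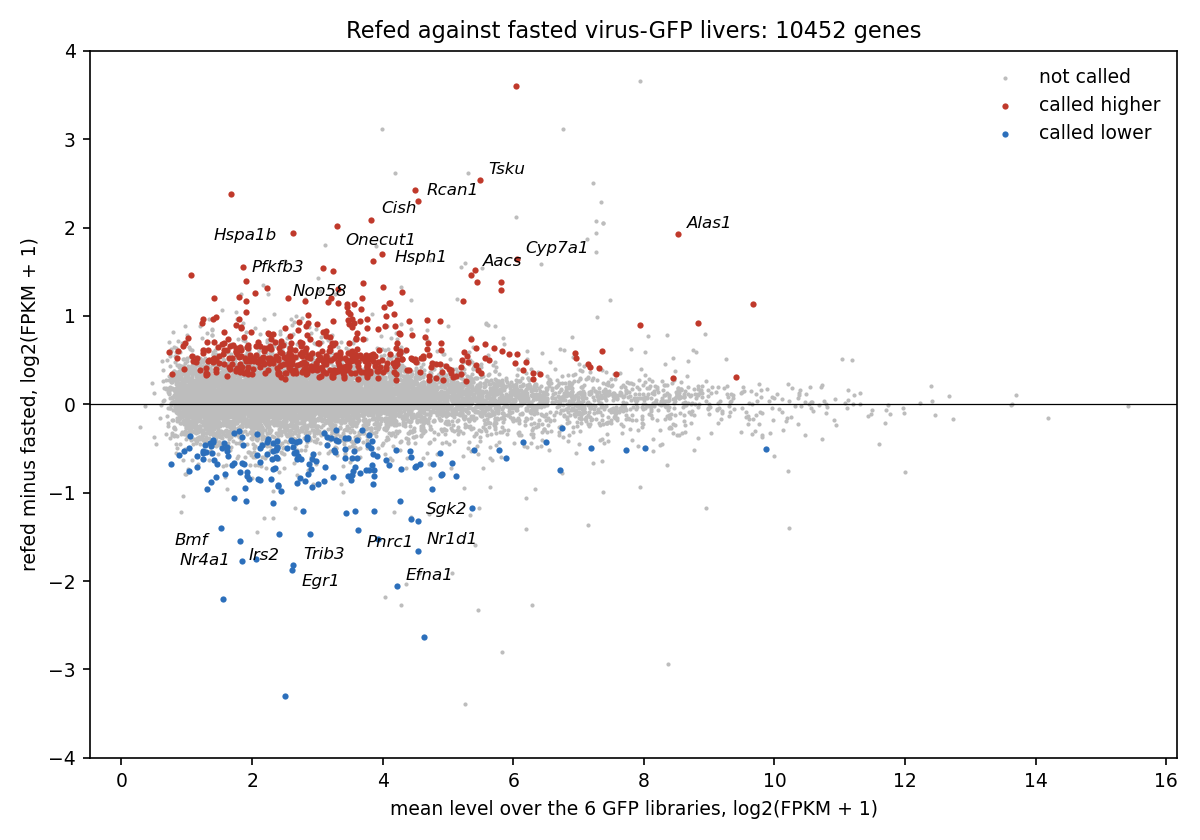
Change on refeeding against level in virus-GFP livers. Each point is a gene, with its mean level over the 6 libraries as log2(FPKM + 1) on the x axis and the refed minus fasted difference on the y axis; red and blue points are the 503 genes called higher and 183 called lower. The named genes lie at the edges of a cloud centred slightly above 0, and 2 called genes lie beyond the plotted range.

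The genes that rose most came from several pathways. Tsku, which encodes the secreted protein tsukushi, lies on chromosome 7 (98350668 to 98361328, mm10). It had 73.4, 71.0 and 78.1 FPKM in refed livers, against 5.80, 21.7 and 13.0 FPKM in fasted livers, a log2 change of 2.54 ± 0.35 (SE; adjusted p = 0.00321, limma). All 3 refed livers lay close together while the fasted livers spread widely, and without the deeper libraries the adjusted p was 0.0564. Rcan1, a regulator of the phosphatase calcineurin, lies on chromosome 16 (92391953 to 92466146). It had 38.4, 38 and 36.6 FPKM in refed livers, against 6.64, 7.01 and 6.92 FPKM in fasted livers. Both groups of Rcan1 values were tight, and the log2 change was 2.30 ± 0.21 (adjusted p = 0.000509). D0H4S114, now called Nrep, a neuronal regeneration related protein, had 38.2, 37.7 and 34.0 FPKM in refed livers, against 8.17, 7.74 and 3.33 FPKM in fasted livers (log2 change 2.42 ± 0.30, adjusted p = 0.00165). Alas1, the rate-limiting enzyme of heme synthesis in liver, lies on chromosome 9 (106233455 to 106247954). It had 556, 619 and 576 FPKM in refed livers, against 131, 159 and 171 FPKM in fasted livers. Its mean was 3.80-fold higher, with a log2 change of 1.93 ± 0.21 (adjusted p = 0.00125). Of the 11 heme synthesis genes tested it was the 1 called (median of the list 0.04, against 0.08 over all genes; 2 higher and 0 lower at an unadjusted p under 0.05). Aacs, acetoacetyl-CoA synthetase, which turns ketone bodies into lipid precursors, lies on chromosome 5 (125475873 to 125517403). It had 57.7, 60.9 and 66.8 FPKM in refed livers, against 21.0, 25.8 and 16.9 FPKM in fasted livers. The groups stood well apart, at a log2 change of 1.52 ± 0.17 (adjusted p = 0.00125).

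Among the genes that fell most were a ligand, a kinase and regulators of transcription and cell death. Efna1, which encodes the membrane ligand ephrin-A1, lies on chromosome 3 (89271730 to 89280951). It had 4.58, 6.58 and 6.73 FPKM in refed livers, against 41.0, 29.1 and 17.5 FPKM in fasted livers (log2 change -2.06 ± 0.29, adjusted p = 0.00374). The fasted livers differed among themselves by more than the refed ones, with no overlap. Bmf, a pro-death member of the Bcl-2 family, lies on chromosome 2 (118528757 to 118549678). It had 0.426, 0.401 and 0.919 FPKM in refed livers, against 3.05, 2.89 and 3.52 FPKM in fasted livers (log2 change -1.41 ± 0.24, adjusted p = 0.00911). Pnrc1, a coregulator of nuclear receptors, lies on chromosome 4 (33245423 to 33248787). It had 5.70, 6.55 and 4.92 FPKM in refed livers, against 18.8, 15.4 and 16.7 FPKM in fasted livers (log2 change -1.42 ± 0.17, adjusted p = 0.00129). Sgk2, a kinase related to Akt, lies on chromosome 2 (162987481 to 163014127). It had 10.3, 11.1 and 15.8 FPKM in refed livers, against 26, 35.2 and 35.4 FPKM in fasted livers (log2 change -1.32 ± 0.18, adjusted p = 0.00334). Each of these 4 kept its call with any 1 GFP library left out. Clec2h, a C-type lectin (log2 change -1.47 ± 0.36, adjusted p = 0.0357), was called with 1 refed library left out, replicate 1 (adjusted p = 0.0275), and lost its call without any of the other 5 (0.0723 to 0.112).

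**Figure D2:**
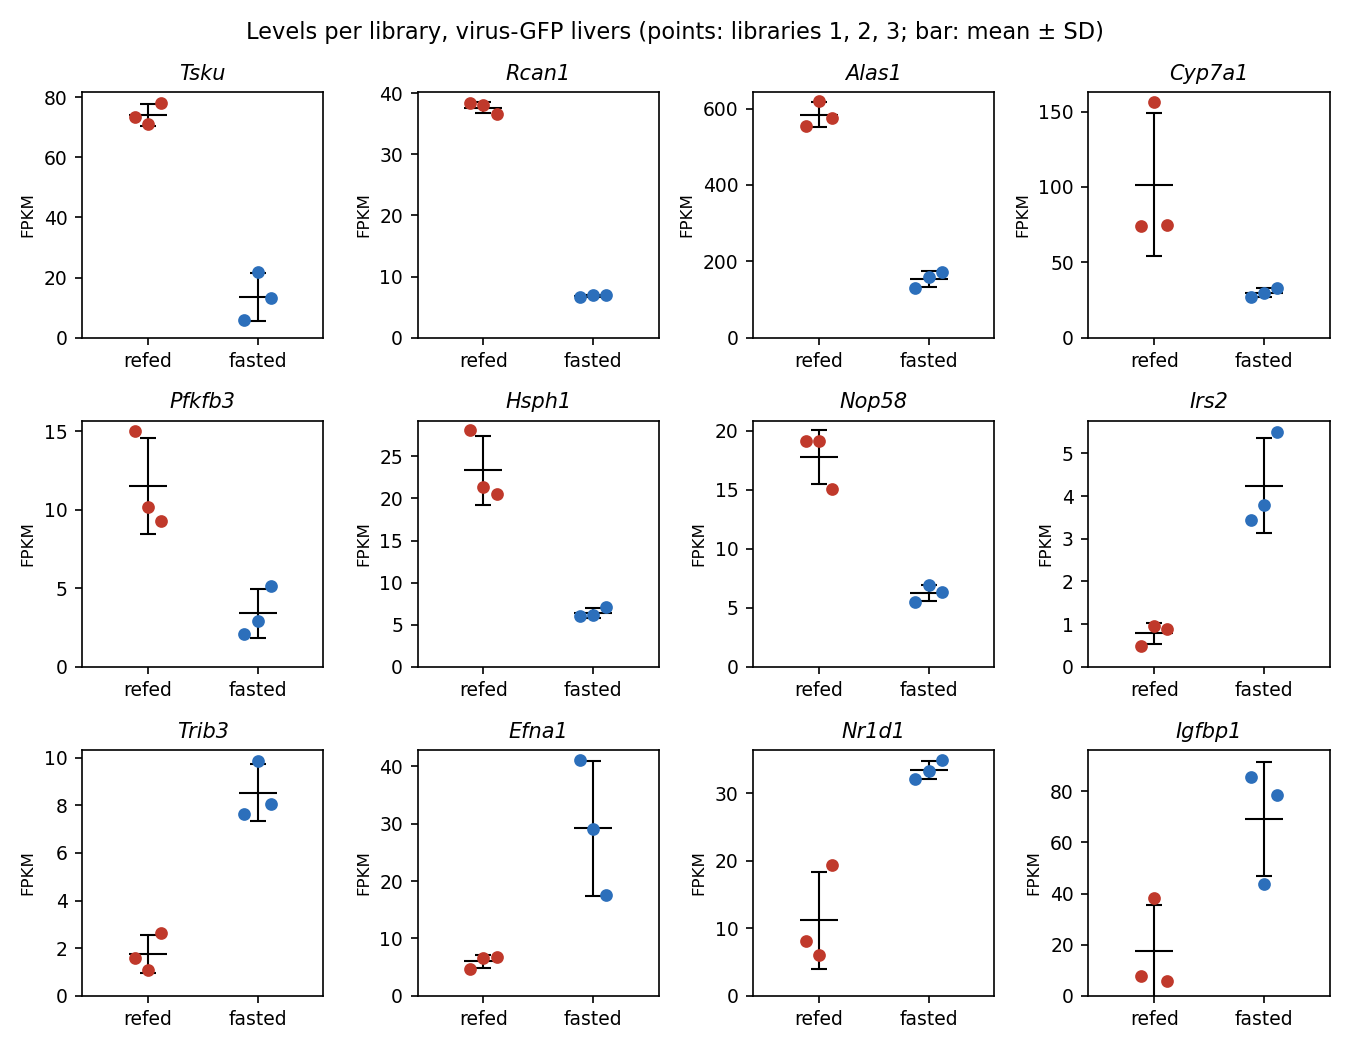
FPKM of 12 genes in each virus-GFP library, refed at the left of each panel and fasted at the right; points are libraries 1, 2 and 3 and bars are the mean ± SD. The refed and fasted points do not overlap in any panel, and Igfbp1 has a refed library at 38.4 FPKM beside a fasted one at 43.6 FPKM.

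Among FoxO1 target genes 4 of 20 tested fell and 0 rose (8 lower and 1 higher at an unadjusted p under 0.05), with a median log2 change of -0.26; 2 of the 4 were called without the deeper libraries. Irs2, the substrate that links the insulin receptor to phosphatidylinositol 3-kinase, lies on chromosome 8 (10986964 to 11008430). It had 0.495, 0.960 and 0.893 FPKM in refed livers, against 3.43, 3.78 and 5.51 FPKM in fasted livers. It fell to 0.782 ± 0.251 FPKM in refed livers, against 4.24 ± 1.11 FPKM in fasted livers (SD, n = 3 each; log2 change -1.55 ± 0.17, adjusted p = 0.00125). Trib3, a pseudokinase that binds Akt, lies on chromosome 2 (152337425 to 152344060). It had 1.58, 1.07 and 2.64 FPKM in refed livers, against 7.63, 9.88 and 8.07 FPKM in fasted livers (log2 change -1.82 ± 0.20, adjusted p = 0.00125). Ccng2, a cyclin that slows the cell cycle, lies on chromosome 5 (93267573 to 93276231). It had 1.81, 1.21 and 1.53 FPKM in refed livers, against 4.78, 3.21 and 3.66 FPKM in fasted livers (log2 change -0.95 ± 0.13, adjusted p = 0.00295). Cited2, a coregulator of transcription, was the fourth at a log2 change of -0.44 ± 0.11 (adjusted p = 0.0421), and kept its call with 1 library left out, refed replicate 3 (0.0495), but not without any of the others (0.0528 to 0.133).

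Igfbp1, a secreted binding protein of insulin-like growth factors, did not pass the test. Its levels were 7.89, 38.4 and 5.93 FPKM in refed livers, against 85.5, 43.6 and 78.4 FPKM in fasted livers (log2 change -2.33 ± 0.71, adjusted p = 0.0736). Refed replicate 2 stood apart from the other refed livers, and without it the adjusted p was 0.0298; with any other library left out it was 0.103 to 0.182. The enzymes of glucose output among the targets were not called: G6pc, glucose-6-phosphatase, had 73.7, 171 and 111 FPKM in refed and 167, 177 and 191 FPKM in fasted livers (log2 change -0.67 ± 0.34, adjusted p = 0.260), and Pck1, phosphoenolpyruvate carboxykinase, had 931, 902 and 775 FPKM in refed and 1109, 991 and 1161 FPKM in fasted livers (-0.32 ± 0.30, adjusted p = 0.547). Txnip, an inhibitor of glucose uptake, had 19.3, 11.2 and 39.2 FPKM in refed and 94.1, 40.2 and 33.1 FPKM in fasted livers, which overlapped (log2 change -1.25 ± 0.50, adjusted p = 0.153). Ppargc1a and Pdk4 were not called, with differences of 0.11 ± 0.17 (adjusted p = 0.732) and -0.17 ± 0.31 (adjusted p = 0.770) on the log2 scale.

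Of 23 insulin signalling genes, 5 were called higher and 1, Irs2, lower, with a median of 0.01; under median-of-ratios scaling the counts were 3 and 3. Pik3r1, the regulatory subunit of phosphatidylinositol 3-kinase, lies on chromosome 13 (101680762 to 101768217). It had 16.3, 16.1 and 16.1 FPKM in refed livers, against 6.47, 7.43 and 7.49 FPKM in fasted livers (log2 change 1.08 ± 0.09, adjusted p = 0.000509). Its 3 refed values were nearly equal. The others called higher were Socs2, described with growth hormone genes below, Ptpn1, a phosphatase that acts on the insulin receptor (0.44 ± 0.11, adjusted p = 0.0374; 0.0815 under median-of-ratios scaling), Akt1 and Foxo1. Akt1, the kinase downstream, had 16.9, 19.4 and 19.4 FPKM in refed and 12.1, 13.9 and 13.4 FPKM in fasted livers (log2 change 0.47 ± 0.10, adjusted p = 0.0188); its call was lost without fasted replicate 1 (0.0650) or refed replicate 2 (0.0627). Foxo1 itself (chromosome 3, 52268337 to 52350109) was detected in all 6 livers, whose virus carried no Cre, with 5.74, 6.81 and 5.91 FPKM in refed and 4.49, 4.33 and 4.58 FPKM in fasted livers. Its log2 change of 0.39 ± 0.10 passed the test (adjusted p = 0.0441) but did not with any library left out (0.0689 to 0.133) or under median-of-ratios scaling (0.0994).

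The promoters of FoxO1 targets and of called genes were searched for the letters of elements that FoxO proteins are known to bind. The window was 250 bases before to 50 bases after each RefSeq start (GRCm38.p6), which was given for 8296 of the tested genes, and both strands were read. The insulin response element CAAAACAA, in reverse TTGTTTTG, was in 3 of 19 promoters of the FoxO1 targets tested, those of Igfbp1, Irs2 and Ccng2. It was in 13 of 196 promoters (6.63%) of genes called lower, in 4 of 487 (0.821%) of genes called higher, in 1.9% of those of tested genes and in 2.51% of all 32851 promoters. The 12 genes called lower with the letters were Irs2, Coq8a (Adck3 in the files), Crebrf (A930001N09Rik), Ccng2, Pde4b, Dedd2, Dyrk1b, Pdcd4, Irf2, Dhrs3, Galt and Amdhd1. The FoxO site GTAAACA was in 2 of those 19 promoters. It was in 4.08% of promoters of genes called lower, 2.26% of genes called higher, 2.78% of tested genes and 3.65% of all. These shares are descriptions with no test. The Irs2 promoter (chr8:11008880-11009179, minus strand) is shown because Irs2 fell furthest of the 12 genes called lower with the element, which is in capitals.
Irs2: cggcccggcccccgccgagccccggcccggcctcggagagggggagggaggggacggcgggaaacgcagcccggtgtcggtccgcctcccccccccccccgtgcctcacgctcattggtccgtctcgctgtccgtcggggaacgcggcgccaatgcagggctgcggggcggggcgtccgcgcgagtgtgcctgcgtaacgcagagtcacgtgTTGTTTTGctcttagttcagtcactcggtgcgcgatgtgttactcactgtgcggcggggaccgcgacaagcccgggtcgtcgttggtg

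Food entering the liver is met by glucose uptake and glycogen synthesis. Over all genes tested, 4.81% were called higher and 1.75% lower. Counts of 1 higher and 1 lower among 14 glycogen and 18 gluconeogenesis genes lie near those shares. Pfkfb3, which makes the activator of phosphofructokinase, lies on chromosome 2 (11471431 to 11553929). It had 15.0, 10.2 and 9.32 FPKM in refed livers, against 2.11, 2.92 and 5.14 FPKM in fasted livers (log2 change 1.54 ± 0.23, adjusted p = 0.00445). Of 16 genes of glucose uptake and glycolysis 3 rose, Pgam1 among them at 0.28 ± 0.07 (adjusted p = 0.0458), which was lost under median-of-ratios scaling (0.144) and, fasted replicate 3 apart, with any library left out (0.0776 to 0.131). In the list 0 fell (2 at an unadjusted p under 0.05) and the median was 0.17; Slc2a2, the glucose transporter, had a log2 change of -0.21 and Pklr, pyruvate kinase, of 0.58 without passing. Of 14 glycogen genes 1 rose and 1 fell. Ppp1r3b, which brings protein phosphatase 1 to glycogen, lies on chromosome 8 (35375741 to 35388137). It had 45.9, 79.4 and 51.9 FPKM in refed livers, against 15.6, 23.4 and 22.3 FPKM in fasted livers (log2 change 1.47 ± 0.25, adjusted p = 0.00812; 0.0507 without the deeper libraries). Phka2, a subunit of phosphorylase kinase, fell by 0.41 on the log2 scale (adjusted p = 0.0486). Its call was kept with 1 library left out, refed replicate 3 (0.0332), and lost without any of the others (0.0839 to 0.136). Among 18 gluconeogenesis genes Fbp1, fructose-1,6-bisphosphatase, was called higher (0.31 ± 0.08, adjusted p = 0.0441) and Crtc2, the glucagon-responsive coactivator, lower (-0.38 ± 0.08, adjusted p = 0.0235). Fbp1 lost its call without any 1 library (0.0638 to 0.116), while Crtc2 kept it without fasted replicate 1 (0.0298) or refed replicate 3 (0.0195) and lost it without any of the other 4 (0.0599 to 0.0762).

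Among fatty acid synthesis genes 4 of 17 were called higher and 0 lower (2 at an unadjusted p under 0.05), with a median of 0.24. Without the deeper libraries 2 of the 4 were called. Thrsp, the Spot 14 protein that promotes lipogenesis, lies on chromosome 7 (97412957 to 97417510). It had 971, 1410 and 978 FPKM in refed livers, against 554, 553 and 414 FPKM in fasted livers (log2 change 1.13 ± 0.16, adjusted p = 0.0033). The desaturases that make polyunsaturated fatty acids both rose. Fads2 lies on chromosome 19 (10064164 to 10101503). It had 369, 282 and 311 FPKM in refed livers, against 166, 166 and 179 FPKM in fasted livers (log2 change 0.90 ± 0.10, adjusted p = 0.00125). Its neighbour Fads1 (chromosome 19, 10182888 to 10196872) had 168, 154 and 168 FPKM in refed livers, against 122, 112 and 123 FPKM in fasted livers (0.45 ± 0.09, adjusted p = 0.0124). Elovl6, which elongates palmitate, had 21.3, 22.9 and 18.7 FPKM in refed and 13.0, 8.82 and 8.61 FPKM in fasted livers (0.99 ± 0.22, adjusted p = 0.0243). Elovl6 kept its call without fasted replicate 1 (0.0275) or refed replicate 3 (0.0367) and lost it without any of the other 4 (0.0656 to 0.0807). The enzymes of the pathway's core did not pass: Acly, Acaca and Fasn had log2 differences of 0.32, 0.30 and 0.48, and Scd1 of -0.09. Srebf1, which encodes the insulin-responsive transcription factor SREBP-1, had 42.5, 43.6 and 59.5 FPKM in refed and 44.2, 41.8 and 60.1 FPKM in fasted livers, with the deeper replicate 3 highest in both groups; the log2 change was -0.0029 (SE 0.24, adjusted p = 0.995).

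Of 19 cholesterol synthesis genes 17 were above 0 and the median was 0.25, and 1 was called. Sqle, squalene epoxidase, had a log2 change of 0.90 that did not pass; at an unadjusted p under 0.05 the list had 4 higher and 0 lower. Lpin1, a phosphatidate phosphatase and coactivator, was the 1 of 21 lipoprotein and export genes called, at 87.6, 88.0 and 60.3 FPKM in refed and 24.2, 34.0 and 36.2 FPKM in fasted livers (1.29 ± 0.24, adjusted p = 0.0117). None of the list fell (5 at an unadjusted p under 0.05; 3 called under median-of-ratios scaling). Of 25 genes of fatty acid oxidation and ketone synthesis, Vnn1, a pantetheinase, was called higher (0.62 ± 0.14, adjusted p = 0.0281), none lower (0 at an unadjusted p under 0.05) and the median was 0.09. The Vnn1 call was lost under median-of-ratios scaling (0.0568) and with any library left out (0.0517 to 0.0922) other than fasted replicate 2 (0.0306).

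Bile acid genes went both ways. Cyp7a1, which catalyses the first step of the classic pathway from cholesterol, lies on chromosome 4 (6265612 to 6275631). It had 73.8, 157 and 74.5 FPKM in refed livers, against 26.9, 29.9 and 32.7 FPKM in fasted livers (log2 change 1.64 ± 0.25, adjusted p = 0.00469). Cyp27a1, which starts the alternative pathway, lies on chromosome 1 (74713574 to 74737890). It had 218, 217 and 207 FPKM in refed livers, against 285, 299 and 327 FPKM in fasted livers (-0.50 ± 0.08, adjusted p = 0.00789). Abcb11, the bile salt export pump, lies on chromosome 2 (69238282 to 69342616). It had 72.3, 78.3 and 78.6 FPKM in refed livers, against 107, 97.5 and 104 FPKM in fasted livers (-0.42 ± 0.08, adjusted p = 0.0124). These were the 3 calls among 17 genes, whose median was -0.23, and 13 of the 17 lay below 0; Cyp7a1 alone was called without the deeper libraries. Cyp8b1, the sterol 12-alpha-hydroxylase, had 156, 79.3 and 67.1 FPKM in refed and 106, 152 and 123 FPKM in fasted livers, which overlapped (-0.41 ± 0.29, adjusted p = 0.411).

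Genes for making ribosomes were higher throughout: 18 of 32 rose (13 under median-of-ratios scaling, 9 without the deeper libraries) while 0 fell (0 also at an unadjusted p under 0.05), with all 32 above 0 and a median of 0.42. Nop58, a core protein of the box C/D ribonucleoprotein that guides RNA methylation, lies on chromosome 1 (59685006 to 59711510). It had 19.1, 19.1 and 15.1 FPKM in refed livers, against 5.49, 6.89 and 6.33 FPKM in fasted livers (1.37 ± 0.18, adjusted p = 0.00278). Its partner Nop56 lies on chromosome 2 (130274412 to 130279313). It had 21.1 ± 0.94 FPKM in refed livers, against 9.31 ± 1.15 FPKM in fasted livers (SD, n = 3 each; 1.10 ± 0.13, adjusted p = 0.00129). Nop2, which methylates ribosomal RNA, and Nolc1, a nucleolar chaperone, rose by log2 changes of 1.15 ± 0.12 (adjusted p = 0.00125) and 1.11 ± 0.13 (adjusted p = 0.00129). The proteins of the ribosome itself were not called: of 29 tested, 0 were called (2 at an unadjusted p under 0.05), and the median, 0.08, was that of all genes.

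Genes that supply growth with polyamines and nucleotides rose in 6 of 21 cases (3 under median-of-ratios scaling, 2 without the deeper libraries), with 0 lower (0 at an unadjusted p under 0.05) and a median of 0.26. Nampt, which recycles nicotinamide into NAD, had 34.0, 25.7 and 21.1 FPKM in refed and 16.2, 13.5 and 10.6 FPKM in fasted livers (0.95 ± 0.18, adjusted p = 0.015), a call lost without fasted replicate 3 (0.0519). Ppat, the first enzyme of purine synthesis, had 9.77, 8.37 and 8.57 FPKM in refed and 5.20, 4.29 and 5.91 FPKM in fasted livers (0.70 ± 0.13, adjusted p = 0.0133). Odc1, ornithine decarboxylase, had 28.5, 32.2 and 29.9 FPKM in refed and 21.4, 15.6 and 21.0 FPKM in fasted livers (0.63 ± 0.13, adjusted p = 0.0162), a call lost without refed replicate 2 (0.0561). Of 24 translation factors 3 rose (median 0.21, 0 lower at an unadjusted p under 0.05), Eif2s1 by 0.54 ± 0.12 (adjusted p = 0.0215), Eef1e1 by 0.45 ± 0.11 (adjusted p = 0.0367) and Eif4a1 by 0.41 ± 0.07 (adjusted p = 0.0112) on the log2 scale. Eif4a1 alone was called under median-of-ratios scaling and with any 1 library left out. Of 20 aminoacyl-tRNA synthetases 3 rose (Rars, Iars and Farsa, by 0.38 to 0.43; median 0.19), and all 3 lost their calls under median-of-ratios scaling (adjusted p = 0.0799 to 0.127).

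Chaperones of the heat shock response rose in 16 of 24 cases (13 under median-of-ratios scaling, 12 without the deeper libraries), with 0 called lower (1 at an unadjusted p under 0.05) and a median of 0.58. Hspa1b, an inducible Hsp70, lies on chromosome 17 (34956429 to 34959238). It had 13.6, 7.79 and 5.32 FPKM in refed livers, against 1.84, 1.32 and 1.20 FPKM in fasted livers (1.94 ± 0.25, adjusted p = 0.0021). Its near-identical neighbour Hspa1a (1.55 ± 0.23, adjusted p = 0.00417) can share fragments with it, so the level of each is uncertain. Hsph1, the nucleotide exchange factor Hsp110, lies on chromosome 5 (149616845 to 149636315). It had 28.1, 21.4 and 20.6 FPKM in refed livers, against 5.97, 6.19 and 7.09 FPKM in fasted livers (1.71 ± 0.20, adjusted p = 0.00129). Hsp90aa1, the inducible Hsp90, lies on chromosome 12 (110691036 to 110696395). It had 80.7, 62.5 and 43.4 FPKM in refed livers, against 20.7, 23.9 and 22.9 FPKM in fasted livers (1.39 ± 0.21, adjusted p = 0.00466). Refed replicate 1 was the highest of the refed livers for all 4 of these chaperones and replicate 3 the lowest. Chaperones of the endoplasmic reticulum lay above 0 in 21 of 22 cases with a median of 0.39, but Xbp1, a transcription factor of the unfolded protein response, was the 1 called (0.58 ± 0.14, adjusted p = 0.0355). It lost the call under median-of-ratios scaling (0.0687) and with any library left out other than fasted replicate 2 (0.0355 without it, 0.0552 to 0.0921 otherwise). At an unadjusted p under 0.05 there were 9 higher and 0 lower.

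The heat shock element is built of GAA units in alternating orientation, and its shortest forms, GAANNTTC and TTCNNGAA, both read the same on either strand. One or the other was in 12 of 26 promoters (46.2%) of the heat shock genes tested, and in 12.1% of promoters of tested genes and 15.1% of all. The 3-unit form, in which the short forms overlap, was in 5 of those 26 (19.2%), against 0.603% of all promoters. Heat shock factor is known to bind such elements in chaperone genes, and the shares carry no test. The search for the second short form was added after the data were seen. The promoters of Hspa1b (chr17:34959189-34959488, minus strand) and Hsph1 (chr5:149636287-149636586, minus strand, the first of 2 given) are shown because these chaperones rose furthest. Matches to the short forms are in capitals, and the run of 13 capitals at the end of the Hsph1 window is the 3-unit form in reverse. Promoters of 2 other leading genes held none of the letters searched for in their lists. That of Trib3 had neither FoxO element, and that of Nop58 lacked the E-box CACGTG. These letters were in 5 of 30 promoters of ribosome biogenesis genes (16.7%) and 10.4% of promoters of tested genes.
Hspa1b: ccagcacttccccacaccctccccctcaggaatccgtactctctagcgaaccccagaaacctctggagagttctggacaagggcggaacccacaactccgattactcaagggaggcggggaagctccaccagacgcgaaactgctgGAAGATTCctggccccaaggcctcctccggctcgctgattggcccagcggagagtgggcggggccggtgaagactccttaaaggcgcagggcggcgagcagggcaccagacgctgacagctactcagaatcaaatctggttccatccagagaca
Hsph1: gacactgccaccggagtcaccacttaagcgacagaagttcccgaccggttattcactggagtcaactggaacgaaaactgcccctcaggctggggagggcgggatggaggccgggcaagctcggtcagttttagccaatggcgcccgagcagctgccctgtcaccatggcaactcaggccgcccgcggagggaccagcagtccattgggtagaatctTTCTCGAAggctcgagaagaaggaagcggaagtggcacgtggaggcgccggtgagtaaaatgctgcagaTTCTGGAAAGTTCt

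**Figure D3:**
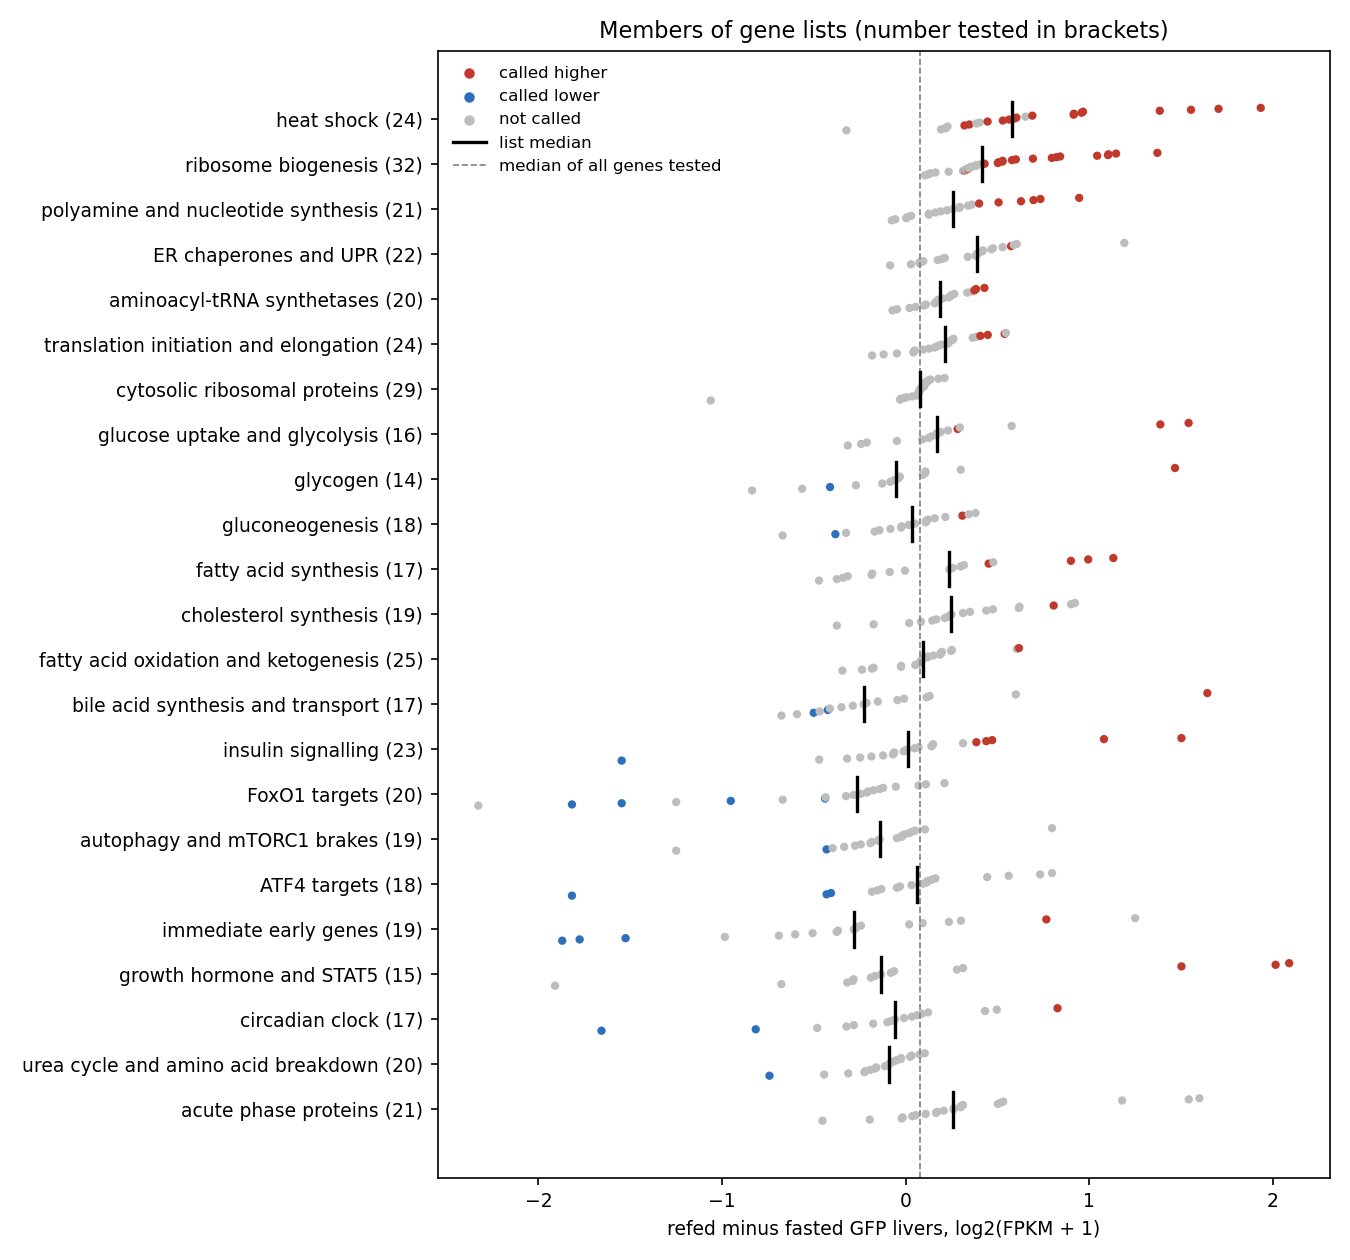
Log2 change on refeeding of each tested member of 23 gene lists, with the number tested in brackets; red and blue points are called higher and lower, grey points are not called, black bars are list medians and the dashed line is the median of all genes tested. Heat shock (median 0.58) and ribosome biogenesis (0.42) lie to the right of that line, while ribosomal proteins (0.08) cluster on it.

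Immediate early genes, which answer growth factors and stress within minutes, lay below 0 in 13 of 19 cases: 3 fell, 1 rose and the median was -0.28. Egr1 had 0.953, 1.45 and 1.08 FPKM in refed livers, against 19.2, 4.36 and 3.48 FPKM in fasted livers (-1.87 ± 0.45, adjusted p = 0.0345), with fasted replicate 1 far above the rest. It lost its call without any 1 refed library (0.0705 to 0.0912). Nr4a1, an orphan nuclear receptor induced by glucagon, had 0.747, 0.435 and 0.650 FPKM in refed livers, against 6.15, 3.55 and 4.10 FPKM in fasted livers (-1.77 ± 0.37, adjusted p = 0.0193). This call was lost without fasted replicate 1 (0.0663) or 3 (0.0504) or refed replicate 2 (0.0619). Junb had 7.96, 4.41 and 5.97 FPKM in refed livers, against 38.2, 19.8 and 8.89 FPKM in fasted livers (-1.52 ± 0.38, adjusted p = 0.0393). Junb kept its call without fasted replicate 3 (0.00736) and lost it without any of the other 5 (0.0600 to 0.118). Klf2 rose, at 3.86, 3.38 and 3.59 FPKM in refed and 1.80, 1.13 and 2.32 FPKM in fasted livers (0.77 ± 0.15, adjusted p = 0.0157), a call lost without refed replicate 1 (0.0532).

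Of 15 genes of growth hormone signalling 3 rose, 0 fell (1 at an unadjusted p under 0.05) and the median was -0.13; 1 was called without the deeper libraries. Socs2 and Cish encode feedback inhibitors that growth hormone induces through STAT5. Socs2 (chromosome 10, 95411490 to 95416857) had 16.2, 10.5 and 12.4 FPKM in refed livers, against 4.30, 4.65 and 2.87 FPKM in fasted livers. Cish (chromosome 9, 107296689 to 107301961) had 34.7, 10 and 22.4 FPKM in refed livers, against 3.26, 3.61 and 5.08 FPKM in fasted livers. Neither gene's groups overlapped. The log2 changes were 1.5 ± 0.25 for Socs2 (adjusted p = 0.00768) and 2.09 ± 0.43 for Cish (adjusted p = 0.0186), and the Cish call was lost without refed replicate 1 (0.0568) or fasted replicate 1 (0.0598) or 2 (0.0573). Onecut1, a hepatocyte transcription factor, had 20.1, 7.52 and 17.4 FPKM in refed livers, against 2.07, 3.30 and 2.78 FPKM in fasted livers (2.02 ± 0.43, adjusted p = 0.0214). It kept its call without refed replicate 2 (0.0173) or fasted replicate 2 (0.0486) and lost it without any of the other 4 (0.0539 to 0.0699). The long-lived products of the hormone, Igf1 and Igfals, had log2 differences of -0.06 and 0.28 that did not pass.

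Of 17 clock genes 2 fell and 1 rose. Nr1d1, which encodes the repressor REV-ERB alpha, lies on chromosome 11 (98767935 to 98775242). It had 8.06, 6.08 and 19.3 FPKM in refed livers, against 32.2, 33.3 and 34.9 FPKM in fasted livers (-1.66 ± 0.32, adjusted p = 0.0133). Cry2 had 6.47, 6.53 and 8.17 FPKM in refed and 13.0, 12.2 and 14.2 FPKM in fasted livers (-0.82 ± 0.13, adjusted p = 0.00774). Per2 had 10.7, 9.73 and 10.3 FPKM in refed and 5.95, 4.18 and 6.01 FPKM in fasted livers (0.83 ± 0.16, adjusted p = 0.0127). The other 14 were not called, and the median was -0.06; the labels used here give no clock hour, and time of day cannot be told apart from food. Per2 kept its call with any 1 library left out but not without both deeper libraries (0.0778). Of 14 glucocorticoid-responsive genes Zbtb16, a zinc finger repressor, rose (1.40 ± 0.17, adjusted p = 0.00185) and Klf9 fell (-0.71 ± 0.17, adjusted p = 0.0295; lost without fasted replicate 2 or 3 or refed replicate 2, 0.0939, 0.0833 and 0.0860).

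Genes that answer amino acid shortage and low energy were called lower or not called. Over all genes tested, 1.75% were called lower and 6.56% were called in either direction. Of 18 ATF4 targets 3 fell and 0 rose (1 at an unadjusted p under 0.05), with a median of 0.06: Trib3, Sesn2 and Ppp1r15a, which lets protein synthesis restart (-0.41 ± 0.11, adjusted p = 0.0498). Of these Trib3 alone was called without the deeper libraries, and Ppp1r15a lost its call without any library other than fasted replicate 3 (0.0256 without it, 0.0754 to 0.142 otherwise). Sesn2, a sensor of leucine that holds mTORC1 back, was called at -0.43 ± 0.11 (adjusted p = 0.0474) and was the 1 call of 19 autophagy genes and mTORC1 brakes (median -0.14; 0 higher and 4 lower at an unadjusted p under 0.05); leaving out any library ended it (0.0772 to 0.126). Hal, which starts the breakdown of histidine, lies on chromosome 10 (93488768 to 93516743). It had 65.9, 65.2 and 104 FPKM in refed livers, against 122, 117 and 148 FPKM in fasted livers (-0.74 ± 0.17, adjusted p = 0.0269), as the 1 call of 20 genes of the urea cycle and amino acid breakdown and of 11 periportal genes. It kept its call without refed replicate 3 (0.00398) and lost it without any of the other 5 (0.0517 to 0.0890). Lgr5, a Wnt receptor of pericentral hepatocytes, fell by 0.58 on the log2 scale (adjusted p = 0.0309; lost with any library out but refed replicate 3, 0.0448 without it and 0.0532 to 0.102 otherwise). With Cyp7a1 it made the 2 calls among 14 pericentral genes (median -0.08). Of 20 hepatokines Tsku was the 1 called (median 0.11; 7 higher and 2 lower at an unadjusted p under 0.05).

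Several programmes had no call. None of 21 proteasome, 24 respiratory chain, 18 xenobiotic metabolism, 13 NRF2, 13 interferon and 21 acute phase genes passed limma's test, with medians of 0.09, 0.08, -0.14, 0.11, 0.11 and 0.26. At an unadjusted p under 0.05 these lists had 2, 0, 3, 5, 2 and 1 genes, beside 2491 of all 10452 genes tested. With 6.56% of all genes called, 0 calls in lists of 13 to 24 genes lie near the share over all genes. Refed replicate 2 stood apart for genes that inflammation induces. Saa1, an acute phase protein, had 88.0, 717 and 56.6 FPKM in refed and 70.2, 74.6 and 57.6 FPKM in fasted livers (adjusted p = 0.520). Lcn2 had 12.3, 177 and 9.14 FPKM in refed and 12.3, 7.33 and 6.74 FPKM in fasted livers (adjusted p = 0.324). The same library had the most S100a8, a neutrophil transcript, at 4.09, 13.4 and 0.970 FPKM in refed and 1.21, 2.19 and 0.513 FPKM in fasted livers. The part of inflammation in the other results was not tested. Fgf21, a hormone of the fasted liver, had 1.53, 0.935 and 0.665 FPKM in refed and 0.453, 0.409 and 0.128 FPKM in fasted livers, near the limit of the filter, and did not pass (0.61 ± 0.19, adjusted p = 0.0749).

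Floxed WT livers are set beside these results, as they share no library with the GFP livers. They came from another set of libraries, with relative depths of 1.10 to 1.27, against 0.549 to 1.37 in GFP livers. Virus, depth and library set cannot be told apart in the comparison. There, 33 of 10375 genes (0.318%) were called on refeeding, 16 higher (0.154%) and 17 lower (0.164%), while the median standard error was alike (0.121 in GFP and 0.108 in WT livers). At an unadjusted p under 0.05 there were 2491 genes in GFP and 1614 in WT livers. Each fit held 12 libraries, with Cre libraries beside GFP ones and libraries of constitutive knockouts (floxed mice with an Albumin-cre transgene) beside WT ones. With GFP libraries alone 280 genes were called (2.77%), and with WT libraries alone 10 (0.0997%). Under median-of-ratios scaling the counts were 570 in GFP and 82 in WT livers. Of the 675 genes called in GFP livers and tested in WT livers, 592 (87.7%) lay in the same direction, against 66.7% of all genes tested in both. The medians were nearer 0 in WT livers: genes called higher in GFP livers had a median log2 change of 0.53 in GFP and 0.20 in WT livers, and genes called lower -0.62 in GFP and -0.30 in WT livers. Since the genes were chosen by their GFP values, these medians are a description.

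The 15 genes called in the same direction in both, 2.22% of the GFP calls tested and 48.4% of the 31 WT calls, included Rcan1, Thrsp, Mphosph10, Shb, Tspan4 and Eef1e1, which rose, and Sgk2, Slc8b1 (Slc24a6 in the files), Tcp11l2, Dlc1, Gtf2ird1, Hal, Arhgef10l and Amdhd1, which fell. Rcan1 had 32.5, 18.2 and 21.5 FPKM in refed and 7.33, 9.61 and 8.04 FPKM in fasted WT livers (log2 change 1.39 ± 0.19, adjusted p = 0.0132). The Rcan1 effect was not shown to differ between GFP and WT livers, with adjusted p = 0.363 by limma's test of the difference. Irs2 had 2.10, 0.734 and 1.19 FPKM in refed and 1.80, 1.58 and 1.70 FPKM in fasted WT livers (-0.24, adjusted p = 0.595), which overlapped, and the difference from GFP livers had an adjusted p of 0.163. Hal and Amdhd1 both act in histidine breakdown and lie near each other on chromosome 10, Hal at 93488768 to 93516743 and Amdhd1 at 93523338 to 93540033. Amdhd1 had 55.6, 54.3 and 68.7 FPKM in refed GFP livers, against 78.9, 80.9 and 79.5 FPKM in fasted GFP livers (-0.42 ± 0.10, adjusted p = 0.0352).

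Livers without hepatocyte FoxO1 had 569 calls on refeeding (5.44%), 449 higher (4.3%) and 120 lower (1.15%), beside the 686 of GFP livers. Under median-of-ratios scaling the counts were 364 in Cre and 570 in GFP livers. Of the 686 genes called in GFP livers, 651 (94.9%) lay in the same direction in Cre livers, against 70.7% of all genes tested, and 262 were called there too, 38.2% of the GFP calls and 46.0% of the Cre calls. Median changes of the genes chosen in GFP livers were 0.53 in GFP and 0.39 in Cre livers for those higher, and -0.62 in GFP and -0.36 in Cre livers for those lower. The refeeding effect itself differed between GFP and Cre livers in 3 of 10452 genes (0.0287%), all more negative in GFP livers. Between GFP and WT livers it differed in 1 of 10682 (0.00936%). At an unadjusted p under 0.05 there were 690 and 1005 genes. Genes without a call are not shown to respond alike. In simulated data the GFP minus Cre fit found 22.4% of genes changed 1.5-fold and 62.7% of those changed 2-fold. The GFP minus WT fit found 38.8% and 83.6%.

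Some leading genes had log2 changes nearer 0 in Cre livers and others had larger ones. None of the gaps in this paragraph passed limma's test of the difference. Since the genes were chosen by their GFP values, changes nearer 0 in Cre livers are a description. Larger in Cre than in GFP livers were the changes of Egr1 (-3.14 against -1.87), Lpin1 (1.72 against 1.29) and Ppp1r3b (1.92 against 1.47). Irs2 had 1.12, 0.854 and 1.66 FPKM in refed and 1.96, 1.81 and 1.64 FPKM in fasted Cre livers (log2 change -0.36), 1.19 less negative than in GFP livers (adjusted p = 0.293 for the difference). Of the 20 FoxO1 targets, 3 were called lower and 0 higher in Cre livers, with a median of -0.2. Trib3 and Ccng2 were called in both, at -1.455 and -0.98 in Cre livers (adjusted p = 0.867 and 0.985 for the differences). Pdk4 was called lower in Cre livers alone, at -1.37 (adjusted p = 0.0320) against -0.17 in GFP livers (adjusted p = 0.715 for the difference). Igfbp1 (-2.485) and G6pc (0.85) were not called in Cre livers (adjusted p = 0.0634 and 0.157). Fads2 had 328, 364 and 349 FPKM in refed and 297, 312 and 300 FPKM in fasted Cre livers (0.19; adjusted p = 0.242 for the difference): the refed values of GFP and Cre livers overlapped and the fasted ones did not. Cish had 5.01, 16.3 and 8.06 FPKM in refed and 14.2, 10.4 and 8.35 FPKM in fasted Cre livers (-0.26; adjusted p = 0.638). Nop56 had nearly the same change, at 22.7, 18.7 and 20.1 FPKM in refed and 8.97, 7.58 and 10.9 FPKM in fasted Cre livers (1.09, adjusted p = 0.995 for the difference).

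**Figure D4:**
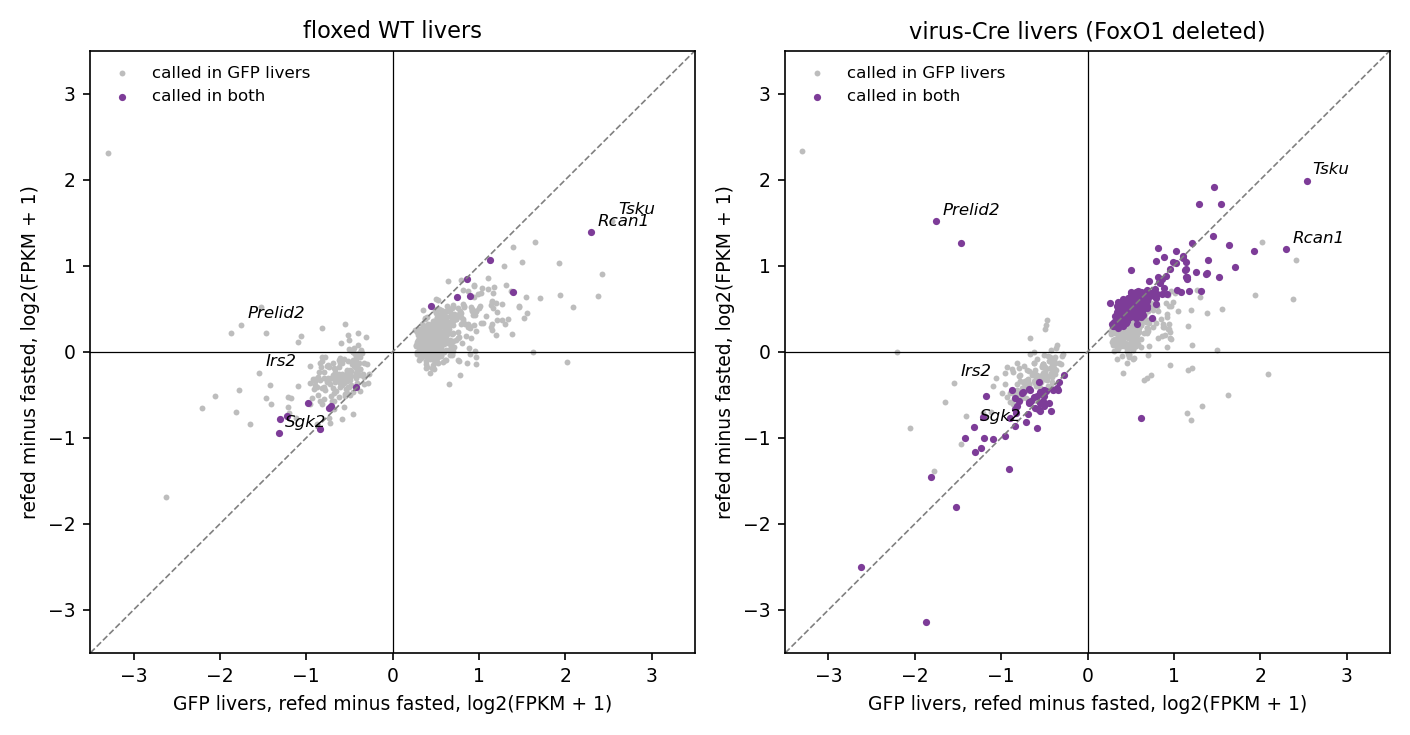
Log2 change on refeeding of the genes called in virus-GFP livers (x axis) against the change of the same genes in WT livers (left) and Cre livers (right) on the y axis; purple points are called in both and the dashed line marks equal change. Most points lie in the quadrants of equal sign, 592 of 675 in WT and 651 of 686 in Cre livers, and nearer 0 on the y axis; 3 called genes lie beyond the plotted range.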

How the data were processed

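Liver RNA was measured by stranded mRNA sequencing. Per the submitters' processing notes the tools were HISAT2, Cufflinks and Cuffdiff with the mm10 build; no versions or settings are given in the sources used here. The FPKM values were deposited by the authors as 1 gene table a library, with 23746 loci each, and were used as deposited. No read counts were given, so depth was judged from the smallest steps between low FPKM values, relative to the mean of the 24 libraries. An estimate from the deposited upper bounds of FPKM lay close, at 0.552 beside 0.549 for fasted GFP replicate 1. No interval was set from counts.

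A limma 3.58.1 fit (R 4.3.3, with the trend option) was made of log2(FPKM + 1), on genes with an FPKM of at least 1 in at least 3 libraries, and fold changes on this scale understate those of low genes. The 6 GFP and 6 Cre libraries shared 1 estimate of spread, WT livers were fitted in the same form with the 6 constitutive knockout libraries, and the GFP against WT difference used all 24 libraries. Adjusted p-values are Benjamini-Hochberg values over all genes tested, with calls at 0.05. Tables and figures were made with Python 3.11.15, pandas 2.3.3 and matplotlib 3.10.9. The fits were tested on simulated data.

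Members and the 34 pathway and 10 marker lists were chosen with earlier results of these data known. Genes named are, by size of change, the leading 12 that rose and 12 that fell (no small RNAs, and no symbols of predicted genes or ending in Rik, whether or not the gene has since been named), 13 chosen genes, up to 4 called members of each list and the calls of each difference; some genes the rule names are not reported here. Ptpn1, Slc2a2, Pklr, Acly, Acaca, Fasn, Scd1, Sqle, Igf1, Igfals, Saa1, Lcn2 and S100a8 lie outside the rule and were chosen after their values were seen, and so do the genes named for a promoter element, for a call shared with WT livers or as other observations. Exact zeros of small nucleolar RNAs can be failed estimates. Alternatives were another pseudocount, no filter, median-of-ratios scaling, array weights, a replicate block, GFP libraries alone, a threshold of 0.01 and leaving out libraries.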

Additional observations from a re-analysis of the deposited data

Results flagged for a closer look

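Refeeding effects were compared between models, and 4 genes are given here because the difference itself passed limma's test. Gm4956, a predicted gene, had 1.80, 1.47 and 2.19 FPKM in refed and 5.70, 7.39 and 7.24 FPKM in fasted GFP livers, and 9.61, 8.27 and 7.54 FPKM in refed and 3.83, 2.08 and 3.02 FPKM in fasted Cre livers. Its refeeding effect in GFP minus Cre livers was -2.73 ± 0.23 on the log2 scale (adjusted p = 0.00128), and the effects had opposite signs. In WT livers, where FoxO1 was also present, Gm4956 had a log2 change of 0.22 (adjusted p = 0.769). Its GFP minus WT difference did not pass (adjusted p = 0.169).

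Prelid2, which encodes a protein related to mitochondrial lipid carriers, had 1.46, 0.574 and 0.693 FPKM in refed and 4.97, 6.83 and 4.39 FPKM in fasted GFP livers, and 4.35, 5.53 and 2.86 FPKM in refed and 0.821, 0.400 and 1.24 FPKM in fasted Cre livers. The effect in GFP minus Cre livers was -3.28 ± 0.34 (adjusted p = 0.00527). In WT livers Prelid2 had a log2 change of 0.315 (adjusted p = 0.762), and its GFP minus WT difference did not pass (adjusted p = 0.247). Snord17, a small nucleolar RNA, was listed at 0 in 3 refed GFP livers, against 6.17, 2.78 and 2.61 FPKM in fasted GFP livers, and at 0 in all 6 Cre livers, with a difference of -2.21 ± 0.29 (adjusted p = 0.0349); such zeros can be failed estimates in an mRNA library.

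Nab1, a corepressor of Egr proteins, had 2.39, 1.80 and 2.03 FPKM in refed and 2.90, 3.38 and 2.76 FPKM in fasted GFP livers, and 7.54, 9.07 and 9.20 FPKM in refed and 2.13, 2.65 and 3.08 FPKM in fasted WT livers. Its effect in GFP minus WT livers was -1.80 ± 0.22 (adjusted p = 0.0013), with no call in GFP livers alone (adjusted p = 0.133). The labels name no virus for WT livers, which came from another set of libraries, so virus and library set cannot be told apart.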

How the results depend on the processing

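The count of genes called, total, higher and lower, was 686, 503 and 183 as reported. It was 451, 330 and 121 with no filter, 570, 262 and 308 under median-of-ratios scaling, 280, 195 and 85 with GFP libraries alone, 145, 103 and 42 at a threshold of 0.01, 222, 140 and 82 without the deeper library of each acute group, and 222, 103 and 119 with that and median-of-ratios scaling together. With a replicate block it was 457, 334 and 123, and 318, 141 and 177 with the block and median-of-ratios scaling; the numbers are not shown to pair the samples, as same-numbered deviations correlated at 0.037, -0.001 and 0.291 and 2 of 3 refed libraries did not correlate best with their own number. Leaving out 1 GFP library gave 293 to 578 calls, 204 to 401 higher and 88 to 177 lower, lowest in total without fasted replicate 1 (293) and highest without refed replicate 3 (578). Of genes tested in WT livers 33 were called, 82 under median-of-ratios scaling and 10 with WT libraries alone, and in Cre livers 569, against 364 under median-of-ratios scaling. These WT and Cre alternatives, the combined settings and the count of list members without the deeper libraries were chosen after seeing the data.

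The GFP minus Cre difference had 2 to 4 calls and the GFP minus WT difference 1 to 3. Of 82 named genes, 72 were called; 61 were under median-of-ratios scaling, 57 with the block, 37 without the deeper libraries and 40 with any GFP library left out. Signs turned only for genes near 0 that were never called: Srebf1 (0.0522 with array weights, 0.00222 without the deeper libraries, -0.156 to 0.155 with 1 library left out) and Ppargc1a (-0.0196 with median-of-ratios scaling and without the deeper libraries, -0.0261 to 0.305 with 1 left out). The cause was not tested; fewer libraries leave fewer degrees of freedom. With 3 libraries a group of unequal and unknown read depth, small changes of genes near 1 FPKM are least certain.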

Other observations

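Genes named here were chosen after their values were seen, and lie outside the naming rule. Gtpbp4, a GTPase of large ribosomal subunit assembly, had 23.6, 22.2 and 22.5 FPKM in refed and 9.28, 10.1 and 9.88 FPKM in fasted livers, with a log2 change of 1.15 ± 0.07 (adjusted p = 2.75e-05, limma). Ppan, another assembly factor, had 13.7, 13.8 and 14.7 FPKM in refed and 5.26, 5.92 and 6.36 FPKM in fasted livers (1.14 ± 0.09, adjusted p = 0.000204). Trmt61a, a subunit of a transfer RNA methyltransferase, had 4.08, 5.70 and 4.78 FPKM in refed and 1.12, 1.69 and 1.51 FPKM in fasted livers (1.26 ± 0.13, adjusted p = 0.00125). Each of these kept its call under median-of-ratios scaling and without the deeper libraries.

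Depp1, a known FoxO target listed as 8430408G22Rik in the files, had 2.46, 8.19 and 8.10 FPKM in refed and 57.8, 30.5 and 36.0 FPKM in fasted livers (log2 change -2.63 ± 0.38, adjusted p = 0.00379), a larger fall than that of any of the 12 leading genes that fell, from which symbols ending in Rik were left out. In Cre livers the log2 change of Depp1 was -2.50 (adjusted p = 0.008), and in WT livers -1.69 (adjusted p = 0.189). The Depp1 difference between GFP and Cre livers had an adjusted p of 0.981. Flcn, the tumour suppressor folliculin, which acts in amino acid signalling at the lysosome, had 9.11, 7.32 and 12.7 FPKM in refed and 18.4, 15.8 and 18.3 FPKM in fasted livers (-0.81 ± 0.16, adjusted p = 0.0134). Foxa3, a hepatocyte transcription factor, had 41.9, 37.5 and 33.3 FPKM in refed and 18.8, 20.9 and 17.5 FPKM in fasted livers (0.94 ± 0.13, adjusted p = 0.00317), while Foxa2 had 18.3, 10.9 and 17.7 FPKM in refed and 7.62, 7.55 and 7.19 FPKM in fasted livers (0.94 ± 0.24, adjusted p = 0.0395; 0.166 without the deeper libraries).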
